A study of Mus musculus with 20 samples.

Results

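The 10 genes described here encode chromatin regulators that are counted among the tumor suppressors of the kidney or share a complex with them. They were taken by gene name from a table of raw read counts for 54532 genes. The set holds the PBAF subunits *Pbrm1*, *Arid2*, *Brd7* and *Phf10*, the ATPases *Smarca4* and *Smarca2*, the BAF subunits *Arid1a* and *Arid1b*, and the histone enzymes *Setd2* and *Bap1*. All 10 passed the filter on low counts that left 15354 genes for testing.

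SWI/SNF complexes use the energy of ATP to slide or evict nucleosomes. A complex holds either *Smarca4* (BRG1) or *Smarca2* (BRM) as its motor. The BAF form carries *Arid1a* or *Arid1b*, while the PBAF form carries *Arid2*, *Brd7*, *Phf10* and the bromodomain protein BAF180, the product of *Pbrm1*. SETD2 trimethylates a lysine of histone H3 (H3K36) along transcribed genes, and BAP1 removes ubiquitin from histone H2A. In human clear cell renal cell carcinoma *PBRM1*, *SETD2* and *BAP1* are often mutated in addition to *VHL*, and all of them lie on the chromosome arm that carries *VHL*.

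Poly(A)-enriched RNA from 10 tumors and 10 normal kidney regions was sequenced. The C57BL/6 mice were LSL-Cas9/+; Pax8 Cre/+, so that Cas9 could be made only in cells in which the Pax8 promoter had been active. As young adults they received, in the kidney, a Cre-less adeno-associated virus (AAV) with sgRNAs against *Vhl*, *Pbrm1*, *Keap1* and *Tsc1*. The normal kidney regions were taken from these mice and carried the same alleles, and the age at collection is not given in the sources used here. Each tumor was from a separate mouse, and each library is a bulk sample that also holds cells in which Cas9 could not be made. Of the 10 genes only *Pbrm1* was targeted.

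Library totals ranged from 14737516 to 26679704 counts, and expression is given in CPM, counts relative to the library total after TMM scaling. Normal kidney 9 stood apart from the other libraries. Against the other 9 normal kidneys, its median log2 difference was 0.99 in the fifth of genes with the shortest exon length and -1.02 in the fifth with the longest. With each library set against the others of its group, the gap between these gene groups was -2.01 in normal kidney 9. It was between 0.04 and 0.41 in the other normal kidneys, whose reference held normal kidney 9, and between -0.13 and 0.18 in the tumors. The members are mostly long, with exon lengths from 4682 bases (*Bap1*) to 14269 bases (*Smarca2*). For 6 of the 10 that library held the lowest normal value, as it did for 32.6% of all genes tested, and the members' fold changes and ratios are given with and without it. In normal kidneys 5, 7 and 8, *Spp1* (osteopontin, raised in injured tubules) stood at 26231 to 44332 CPM, against 2026 to 4054 CPM in the other 7. The 6 markers of the thick limb, distal tubule and collecting duct summed to 0.612 to 8.80 CPM per tumor and 4078 to 10235 CPM per normal kidney, all 6 fell, and 2 of them were under 1 CPM in every tumor. The 6 proximal tubule markers summed to 840.0 to 8521 CPM per tumor and 1102 to 8580 CPM per normal kidney, and 1 of the 6 fell. The 9 immune markers summed to 235 to 1046 CPM per tumor, 95.5 to 185 CPM in 9 normal kidneys and 391 CPM in normal kidney 9. Of the 6 immune markers tested 3 rose (5 without normal kidney 9) and 0 fell, and their part in the members' values was not tested. Of 5 endothelial markers 1 rose and 1 fell, and of 5 fibroblast markers 1 fell. In these bulk samples, fewer cells of a type and less RNA per cell cannot be told apart.

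*Smarca4* rose in the tumors and was the only member to pass the test with all 20 libraries, in which 1 of 10 members was called higher and 0 lower. Of all genes tested, 23.6% were called higher and 23.8% lower. With normal kidney 9 left out, *Smarca4* was again the only member called higher and 4 members fell: *Arid1a*, *Pbrm1*, *Setd2* and *Arid1b*. In that fit 26.1% of all genes were called higher and 25.8% lower. The median log2 fold change of the 10 members was -0.13 with all libraries and -0.15 without normal kidney 9, beside -0.02 and -0.01 for all genes tested. No member passed the stricter limits used in the study, an absolute log2 fold change over 1 at p under 0.001, which 8.85% of genes passed upward and 10.2% downward.

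**Figure D1:**
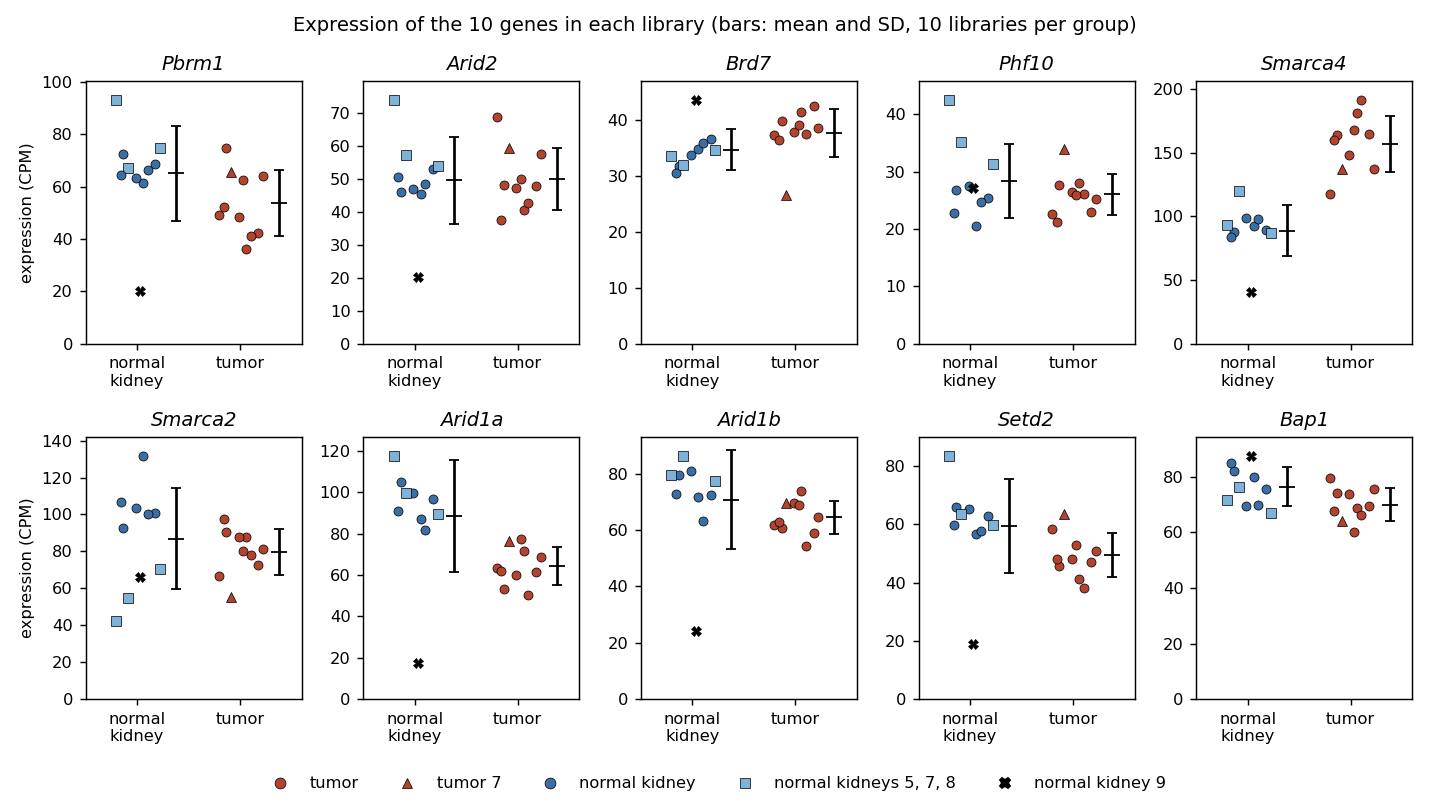
Expression in CPM (vertical axes, each from 0) of the 10 genes in every library, with normal kidneys on the left and tumors on the right of each panel. Bars give the mean and SD of 10 libraries per group. Normal kidney 9 (cross) is far below the other normal kidneys for *Pbrm1*, *Arid2*, *Smarca4*, *Arid1a*, *Arid1b* and *Setd2*, and above them for *Brd7*.

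The windows upstream of *Pbrm1*, *Smarca4* and *Smarca2* are shown because the first bases of *Pbrm1* overlap a neighbor on the other strand, and because the ratio of the ATPases is followed in detail. The RefSeq table (GRCm38.p6) held 9 of the 10 members, *Arid2* being the missing entry. Each sequence is the 250 bases before the RefSeq start on the plus strand, with capitals where the core of the hypoxia response element, ACGTG or GCGTG, was found on either strand (on the minus strand it reads CACGT or CACGC). The windows are chr14:31018888-31019137 for *Pbrm1*, chr9:21615919-21616168 for *Smarca4* and chr19:26604910-26605159 for *Smarca2*.
Pbrm1: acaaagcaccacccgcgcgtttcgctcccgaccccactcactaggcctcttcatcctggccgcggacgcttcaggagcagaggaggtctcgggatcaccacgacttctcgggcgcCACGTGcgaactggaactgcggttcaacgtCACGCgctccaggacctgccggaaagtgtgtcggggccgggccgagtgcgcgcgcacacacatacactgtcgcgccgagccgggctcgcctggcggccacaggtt
Smarca4: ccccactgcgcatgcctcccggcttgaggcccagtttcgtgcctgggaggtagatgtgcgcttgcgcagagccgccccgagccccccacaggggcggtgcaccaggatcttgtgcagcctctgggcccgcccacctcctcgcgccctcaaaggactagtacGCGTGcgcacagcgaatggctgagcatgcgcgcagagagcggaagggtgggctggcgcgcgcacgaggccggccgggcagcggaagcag
Smarca2: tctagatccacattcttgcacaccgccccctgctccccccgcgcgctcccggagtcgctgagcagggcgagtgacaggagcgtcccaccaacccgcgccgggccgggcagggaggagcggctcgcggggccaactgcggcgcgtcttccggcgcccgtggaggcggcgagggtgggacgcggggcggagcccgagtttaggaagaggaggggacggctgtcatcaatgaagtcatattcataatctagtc
The *Pbrm1* window held 3 matches, of which an ACGTG and a CACGT overlap in 1 palindrome, the *Smarca4* window held 1 and the *Smarca2* window held 0. Among the 9 members, 6 had a match, and 38.6% of all 32851 windows of the same length had one. A match is a description of the letters only.

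*Pbrm1* was lower in most tumors than in most normal kidneys, but the difference passed the edgeR test without normal kidney 9 and not with all 20 libraries. With all 20, limma-voom with quality weights called it. DESeq2 did not, nor did edgeR with other scalings, a replicate block or a correction for exon length. *Pbrm1* is the targeted gene, and its product BAF180 binds acetylated histones and sets PBAF apart from BAF. The gene (ENSMUSG00000042323) lies on chr14:31019138-31121592, plus strand (mm10). Its tumor values had a lowest of 36.2, a median of 50.9 and a highest of 74.9 CPM, and its normal kidney values had a lowest of 20.0, a median of 66.7 and a highest of 93.0 CPM. The lowest normal value was that of normal kidney 9, and the other 9 lay between 61.4 and 93.0 CPM. Of the tumors, 6 lay below all of these 9, with tumor 1 the lowest, and tumors 2, 7, 8 and 9 lay among them at 62.4 to 74.9 CPM.

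*Pbrm1* averaged 53.7 ± 12.6 CPM over the tumors and 65.2 ± 18.2 CPM over the normal kidneys (mean ± SD, n = 10 each), or 70.2 ± 9.55 CPM over 9 normal kidneys. Its log2 fold change was -0.28 (SE 0.19, edgeR quasi-likelihood adjusted p = 0.23) with all libraries. It was -0.39 (SE 0.13, edgeR adjusted p = 0.0137) without normal kidney 9. With all libraries and a correction for the trend with exon length in each library it was -0.31 (edgeR adjusted p = 0.09). In settings added after the data were seen, it was -0.14 (edgeR adjusted p = 0.596) without normal kidneys 5, 7 and 8, and -0.31 (edgeR adjusted p = 0.0586) with normal kidney 9 left out too. The spread among tumors, an SD of 0.34 on the log2 scale, was the largest of the 10 members, beside 0.12 for *Bap1*. A count over the whole gene does not show whether a transcript carries an edit, and the transcript was present in every tumor.

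Counts of *Pbrm1* carry an uncertainty from its neighbors. It overlaps *Gnl3* (nucleostemin, a nucleolar GTPase) at its first bases and *Smim4* (a small mitochondrial membrane protein) at its far end, both on the minus strand. Over the 20 libraries *Gnl3* had 15193 counts and *Smim4* 7495 counts, equal to 63.3% and 31.2% of the 24007 counts of *Pbrm1*. These are counts over the whole of each neighbor, not over the shared bases. *Gnl3* (chr14:31012433-31019152) shares with *Pbrm1* only the few bases from 31019138 to 31019152. These neighbors moved in opposite directions, *Gnl3* with a log2 fold change of 0.61 (SE 0.21, edgeR adjusted p = 0.0211) and *Smim4* with -1.30 (SE 0.25, edgeR adjusted p = 2.39e-04). Whether the counting used strand is not given in the sources used here, and its part in the values of *Pbrm1* was not tested.

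*Arid2*, which gives PBAF its ARID subunit, did not pass the test in either direction. The gene (ENSMUSG00000033237, chr15:96287518-96404992, plus strand) had 37.5, 48.0 and 68.9 CPM as its lowest, median and highest tumor values. In normal kidneys the corresponding values were 20.2, 49.6 and 73.8 CPM, and 45.3 CPM was the lowest without normal kidney 9, so the groups overlapped over nearly their whole ranges. The log2 fold change was 0.01 (SE 0.16, edgeR adjusted p = 0.96) and -0.09 (SE 0.12, edgeR adjusted p = 0.541) without normal kidney 9.

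*Brd7* and *Phf10*, the remaining PBAF-specific subunits, also missed the threshold. *Brd7* (ENSMUSG00000031660, chr8:88331039-88362194, minus strand), a bromodomain protein, had 26.6, 38.3 and 42.5 CPM as its lowest, median and highest tumor values, and 30.5, 34.2 and 43.5 CPM as those of normal kidneys. Normal kidney 9 was the highest normal value, and 8 tumors lay above the other 9 normal kidneys, which reached 36.6 CPM. The low value was tumor 7, which also had the largest summed levels of the 9 immune markers (1046 CPM, against at most 608 CPM in the other tumors) and of the 5 fibroblast markers (3744 CPM, against at most 446 CPM), a relation that was not tested. The log2 fold change of *Brd7* was 0.12 (SE 0.09, edgeR adjusted p = 0.267), and 0.15 (SE 0.07, edgeR adjusted p = 0.0826) without normal kidney 9.

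*Phf10* (ENSMUSG00000023883, chr17:14945009-14961273, minus strand), a PHD finger protein that joins PBAF, had tumor values of 21.2, 26.0 and 34.0 CPM and normal kidney values of 20.5, 27.0 and 42.4 CPM (lowest, median and highest). The 3 highest normal values, 31.3 to 42.4 CPM, were normal kidneys 5, 7 and 8, the libraries with high *Spp1*. Its log2 fold change was -0.13 (SE 0.12, edgeR adjusted p = 0.415), and -0.14 (SE 0.13, edgeR adjusted p = 0.368) without normal kidney 9. It turned to 0.07 (edgeR adjusted p = 0.63) without those 3 libraries. On the opposite strand *Phf10* overlaps *1600012H06Rik*, whose counts came to 131% of its own.

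**Figure D2:**
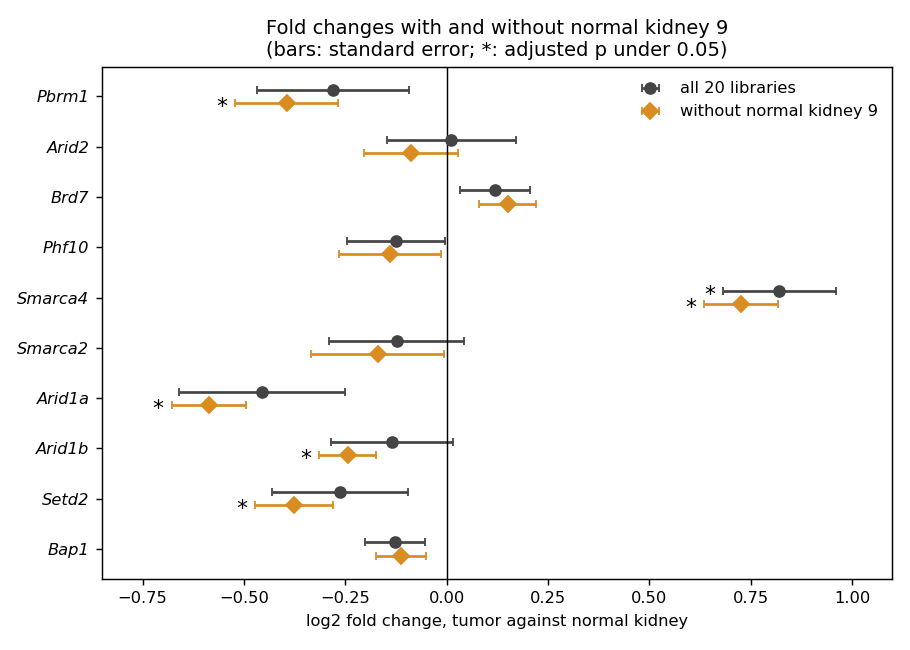
Log2 fold change of each gene, tumor against normal kidney, with its standard error (horizontal axis), for all 20 libraries (circles) and without normal kidney 9 (diamonds). Asterisks mark adjusted p under 0.05: *Smarca4* in both fits, at 0.82 and 0.73, and *Pbrm1*, *Arid1a*, *Arid1b* and *Setd2* without normal kidney 9 only.

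*Smarca4* (BRG1), the ATPase found in BAF and PBAF alike, was 1.77-fold higher in tumors. The gene (ENSMUSG00000032187) lies on chr9:21616169-21704230, plus strand. The tumors had a lowest value of 118, a median of 162 and a highest of 191 CPM, and the normal kidneys 40.3, 90.8 and 120.3 CPM. The highest tumor was tumor 6, and 9 of the 10 tumors lay above every normal kidney, tumor 5 at 118 CPM being just under normal kidney 7 at 120.3 CPM. Every tumor was above every normal kidney in 5.87% of the genes tested, a set that *Smarca4* missed by this pair.

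*Smarca4* averaged 157 ± 22.1 CPM over the tumors and 88.9 ± 20.0 CPM over the normal kidneys (mean ± SD, n = 10 each). The log2 fold change was 0.82 (SE 0.14, edgeR adjusted p = 5.25e-05), and 0.73 (SE 0.09, edgeR adjusted p = 1.67e-06) without normal kidney 9. It stayed between 0.67 and 0.90 over all 34 alternative settings, and passed the test in each, with edgeR, DESeq2 and limma.

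*Smarca2* (BRM), the alternative motor, did not pass the test with all libraries. The gene (ENSMUSG00000024921) lies on chr19:26605050-26778322, plus strand. Its lowest, median and highest tumor values were 55.4, 81.0 and 97.5 CPM, and those of normal kidneys 42.5, 96.6 and 132 CPM. The normal kidneys fell apart: 6 lay at 92.8 to 132 CPM, while normal kidneys 5, 7, 8 and 9 had 42.5, 55.0, 70.3 and 65.9 CPM. The first 3 of these had the high *Spp1*. The SD of normal kidneys on the log2 scale was 0.51 and, unlike that of the other long members, it was no smaller without normal kidney 9 (0.52).

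The log2 fold change of *Smarca2* was -0.12 (SE 0.17, edgeR adjusted p = 0.569), and -0.17 (SE 0.17, edgeR adjusted p = 0.404) without normal kidney 9. Without normal kidneys 5, 7 and 8 it was -0.32 (edgeR adjusted p = 0.0369), in a fit that called 25.5% of all genes lower. Leaving out normal kidney 9 as well gave -0.42 (edgeR adjusted p = 0.00306), with 28.3% of all genes called lower. These last settings were added after the data were seen. They leave out normal kidneys that were low in *Smarca2* itself, which lowers its fold change by that choice, so the calls are not independent of it. The GENCODE M21 basic set lists 12 transcripts of *Smarca2*, of which 9 start in the later part of the gene, beyond its midpoint. The gene count pools them and does not tell which start was used.

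The balance of the motors was followed within each library as the ratio of *Smarca4* to *Smarca2* per kilobase of exon, which does not depend on the scaling between libraries. Tumors had a lowest ratio of 3.63, a median of 4.28 and a highest of 5.45, and normal kidneys 1.35, 2.09 and 4.82. Normal kidneys 5 and 7 had 4.81 and 4.82 and normal kidney 8 had 2.71, while the other 7 lay between 1.35 and 2.14, below every tumor. The mean log2 ratio was 0.92 higher in tumors (two-sided permutation test, p = 8.8e-04, adjusted p = 0.0044 over 5 ratios), a 1.89-fold difference. The difference was 0.83 without normal kidney 9 (permutation test, adjusted p = 0.00363). In a setting added after the data were seen, it was 1.26 without normal kidneys 5, 7 and 8 (permutation test, adjusted p = 5.14e-04). Those libraries held the highest normal ratios, so leaving them out raises the difference by itself.

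**Figure D3:**
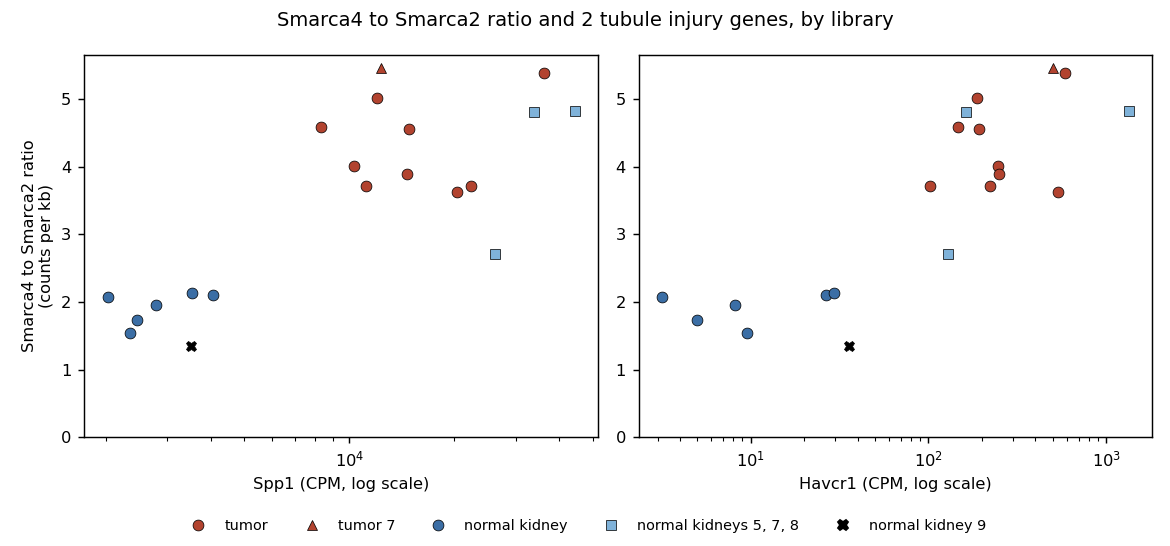
Ratio of *Smarca4* to *Smarca2* per kilobase of exon (vertical axis, from 0) in every library against the expression in CPM of *Spp1* (left) and *Havcr1* (right), both on log axes. Normal kidneys 5, 7 and 8 (squares) have high *Spp1* and *Havcr1*. For both genes 5 and 8 lie within the range of the tumors and 7 lies above every tumor. Their ratios are 2.71 to 4.82, while the other normal kidneys stay at 1.35 to 2.14.

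The 3 normal kidneys with the highest ratio were those with high injury genes. *Havcr1* (KIM-1, a proximal tubule injury marker) stood at 163, 1347 and 128 CPM in normal kidneys 5, 7 and 8 and at 3.18 to 35.7 CPM in the others, and tumors had 102 to 586 CPM. *Spp1* in tumors was 8319 to 36145 CPM. Both genes were chosen after their values were seen, and their part in the ratio was not tested. In these 3 normal kidneys *Smarca2* was below its level in the 6 normal kidneys other than these and normal kidney 9. *Smarca4*, at 83.5 to 98.7 CPM in those 6, had 92.8 and 86.5 CPM in normal kidneys 5 and 8 and was above that range in normal kidney 7 at 120.3 CPM. In tumors *Smarca4* was above those 6 in every library, and *Smarca2* was below them in 9 of 10, tumor 10 at 97.5 CPM being the exception. Normal kidneys 5, 7, 8 and 9, left out of those 6, had the lowest normal values of *Smarca2*, so its separation follows from that choice. Against all 10 normal kidneys, 0 tumors were below every one for *Smarca2* and 9 were above every one for *Smarca4*. How many of all genes separate from those 6 was not counted.

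*Arid1a*, the ARID subunit most often mutated in BAF across human cancers, separated the groups once normal kidney 9 was set aside. The gene (ENSMUSG00000007880, chr4:133679008-133756769, minus strand) ranged in tumors from 50.5 to 77.6 CPM with a median of 62.6, and in normal kidneys from 17.4 to 118 CPM with a median of 93.9. The value of 17.4 CPM was normal kidney 9, the largest departure of that library among the members at -2.46 on the log2 scale. The other 9 normal kidneys lay between 81.7 and 118 CPM, above all 10 tumors. With normal kidney 9 set aside, 6.12% of all genes tested had every tumor below every normal kidney.

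The means of *Arid1a* were 64.5 ± 9.09 CPM in tumors (SD, n = 10) and 96.4 ± 10.7 CPM in the 9 normal kidneys (SD, n = 9), or 88.5 ± 27.0 CPM with all 10. With all libraries the log2 fold change was -0.46 (SE 0.20, edgeR p = 0.0369, adjusted p = 0.072), outside the threshold. It was -0.59 (SE 0.09, edgeR adjusted p = 2.16e-05) without normal kidney 9. With all libraries and a correction for the trend with exon length in each library it was -0.45 (edgeR adjusted p = 0.0121).

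*Arid1b*, which takes the place of *Arid1a* in other BAF complexes, passed the edgeR test without normal kidney 9 and not with all 20 libraries. The gene (ENSMUSG00000069729, chr17:4994332-5347656, plus strand) ranged in tumors from 54.3 to 74.0 CPM with a median of 63.7, and in normal kidneys from 24.1 to 86.2 CPM with a median of 75.1. The normal kidneys other than 9 lay between 63.0 and 86.2 CPM, and 5 tumors lay below them all. The log2 fold change was -0.13 (SE 0.15, edgeR adjusted p = 0.488), and -0.24 (SE 0.07, edgeR adjusted p = 0.0064) without normal kidney 9.

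The ratio of *Arid1a* to *Arid1b* per kilobase was lower in tumors. Tumors ran from 0.950 to 1.24 and the normal kidneys other than 9 from 1.27 to 1.62, without overlap, and normal kidney 9 had 0.794. The mean log2 ratio differed by -0.27 with all libraries (two-sided permutation test, p = 0.0128, adjusted p = 0.0319), a 1.20-fold lower ratio. With normal kidney 9 left out it differed by -0.35 (p = 2.17e-05 before adjustment, the smallest that the permutation test can give there, and adjusted p = 1.08e-04). Without normal kidneys 5, 7 and 8 the call was lost (permutation test, -0.24, adjusted p = 0.0758). It was also lost when tumor 4 or 6 or normal kidney 2, 3 or 6 alone was left out (permutation test, -0.26 to -0.25, adjusted p from 0.0533 to 0.0594). With equal replicate numbers taken as pairs the ratio did not pass either (permutation of signs, adjusted p = 0.0708).

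The ratios that set PBAF subunits against each other or against BAF were compared in the same way. *Arid2* relative to the sum of *Arid1a* and *Arid1b* had a median of 0.449 in tumors and 0.347 in normal kidneys. The mean log2 difference of 0.27 missed the threshold (permutation test, adjusted p = 0.0533), and without normal kidney 9, itself the highest normal value at 0.550, it was 0.34 (permutation test, adjusted p = 0.00992). It also passed when tumor 1 or 10 or normal kidney 5 alone was left out. *Pbrm1* relative to *Arid2* ranged from 0.869 to 1.89 in tumors and from 1.20 to 1.91 in normal kidneys, and tumors 1, 3, 5 and 6 were below every normal kidney. Its log2 difference was -0.28 (permutation test, adjusted p = 0.0497) and -0.32 (permutation test, adjusted p = 0.0149) without normal kidney 9. With all but 1 library, that call held only when tumor 2, 9 or 10 or normal kidney 5, 7 or 9 was left out, and the adjusted p ran from 0.0143 to 0.0966 over the 20 libraries. With equal replicate numbers taken as pairs, *Pbrm1* to *Arid2* did not pass (permutation of signs, adjusted p = 0.0708).

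**Figure D4:**
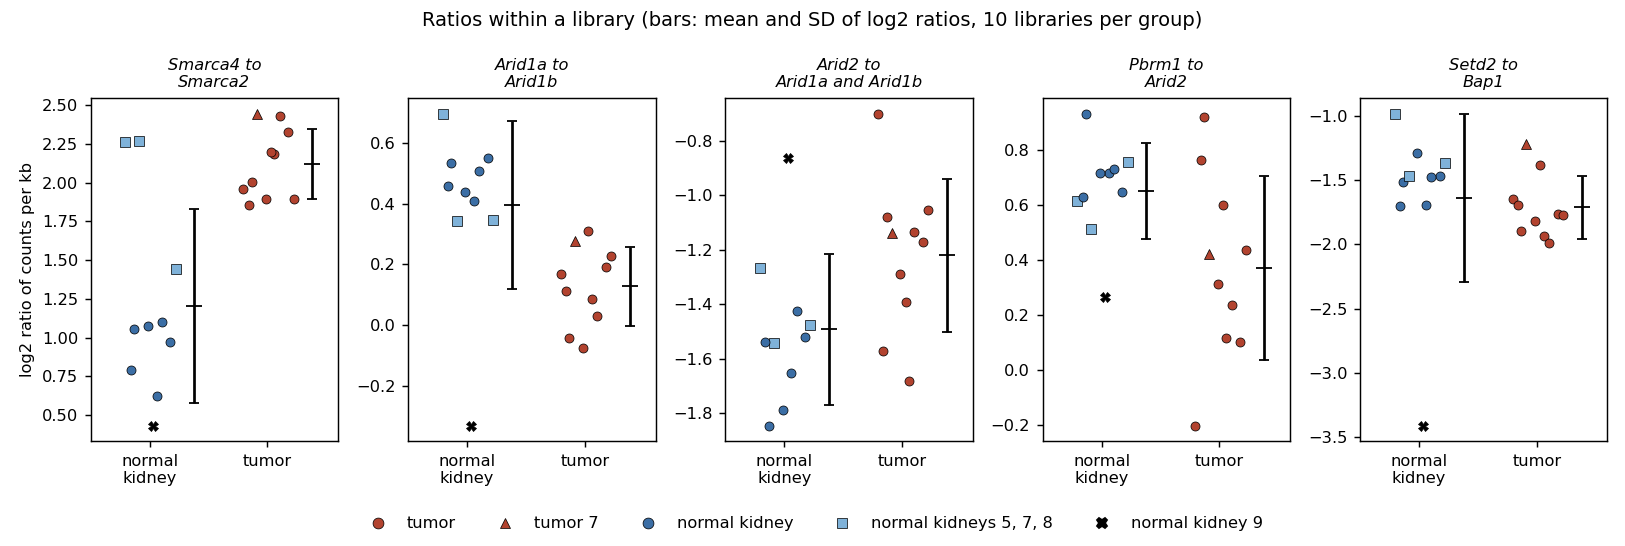
Log2 ratios of counts per kilobase of exon (vertical axes) within each library, normal kidneys on the left and tumors on the right of each panel, with the mean and SD of 10 libraries per group. The ratio of *Arid1a* to *Arid1b* separates the tumors from all normal kidneys except normal kidney 9 (cross), and in the first panel normal kidneys 5 and 7 (squares) sit among the tumors.

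Neither of the histone enzymes, *Setd2* and *Bap1*, passed the edgeR test with TMM scaling alone and all 20 libraries. Without normal kidney 9 *Setd2* was called lower and *Bap1* was not. *Setd2* (ENSMUSG00000044791, chr9:110532597-110618633, plus strand) ranged in tumors from 38.3 to 63.4 CPM with a median of 48.3, and in normal kidneys from 18.9 to 83.5 CPM with a median of 61.4. The normal kidneys other than 9 started at 56.8 CPM and 8 tumors lay below them, the exceptions being tumor 7 at 63.4 CPM and tumor 5 at 58.6 CPM. The log2 fold change was -0.26 (SE 0.17, edgeR adjusted p = 0.204), and -0.38 (SE 0.10, edgeR adjusted p = 0.00267) without normal kidney 9. With the correction for exon length and all libraries it was -0.28 (edgeR adjusted p = 0.0465).

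*Bap1* (ENSMUSG00000021901, chr14:31251450-31259944, plus strand) is the shortest of the 10 by exon length and had the smallest SDs of log2 CPM with all libraries, 0.12 in tumors and 0.13 in normal kidneys. Tumors ran from 60.3 to 79.6 CPM with a median of 69.1, and normal kidneys from 67.0 to 87.5 CPM with a median of 76.0, normal kidney 9 being the highest. The groups overlapped between 67.0 and 79.6 CPM. Its log2 fold change was -0.13 (SE 0.07, edgeR adjusted p = 0.168), and -0.11 (SE 0.06, edgeR adjusted p = 0.13) without normal kidney 9. The ratio of *Setd2* to *Bap1* had medians of 0.294 in tumors and 0.361 in normal kidneys, was 0.0940 in normal kidney 9, and its log2 difference was -0.07 (permutation test, adjusted p = 0.833). That difference was -0.27 (permutation test, adjusted p = 0.0221) without normal kidney 9. Without normal kidneys 5, 7, 8 and 9, a setting added after the data were seen, it was -0.19 (permutation test, adjusted p = 0.123).

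The levels of the 10 genes were compared with each other per kilobase of exon, with the length that came with the counts for each gene. Gene counts do not tell which transcripts were made, so the order of the genes also depends on these lengths. In normal kidneys *Bap1* had 16.3 ± 1.50 CPM per kb and *Smarca4* 13.7 ± 3.08 CPM per kb (SD, n = 10), and their ranges overlapped. The remaining 8 followed from *Arid1a* at 7.71 ± 2.35 down to *Arid2* at 4.62 ± 1.23 CPM per kb, and no neighbors in that order were apart by more than their SDs. In tumors *Smarca4* led at 24.3 ± 3.41 CPM per kb, with its lowest tumor at 18.2, above the highest of *Bap1* at 17.0 CPM per kb (mean 14.9 ± 1.24). *Brd7* came next at 7.20 ± 0.826 CPM per kb, and *Setd2* was last at 4.60 ± 0.698 CPM per kb. *Arid1a* and *Arid1b*, at 5.62 ± 0.792 and 5.12 ± 0.471 CPM per kb, were within their SDs of each other in tumors.

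*Pbrm1* and *Bap1* are neighbors in the mouse as in the human genome, with a gap of 129.9 kb between them, whereas *Setd2* is on chromosome 9. Within 150 kb of either gene lie 27 other genes, of which 19 were tested, 7 rose and 3 fell. The fallen ones were *Sema3g* (a semaphorin made by endothelium, log2 fold change -3.24), *Smim4* and *Tmem110* (-0.74). Those that rose included *Tnnc1* (a troponin, 2.99), *Itih3* (2.45), the scavenger receptor gene *Stab1* (1.52) and *Nisch* (0.64), next to *Gnl3*, *Capn7* (0.52) and *Sh3bp5* (0.44). The genes around *Pbrm1* and *Bap1* thus moved in both directions, with 10 of 19 called, beside 47.5% of all genes tested.

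The genes whose levels followed *Pbrm1* most closely over the 20 libraries, by Spearman's rho of log2 CPM among 13694 protein-coding genes, were *Senp1* (a SUMO protease, 0.86), *Zfp280c* (0.86), *Zmym4* (0.84), *Zfp512b* (0.83) and *Arglu1* (0.83). Among the members *Setd2* had 0.71, *Arid1a* 0.67, *Arid2* 0.60 and *Arid1b* 0.55, while *Smarca4* had -0.41 and *Brd7* -0.60. The libraries share the group difference and normal kidney 9, and the median exon length of the 100 genes closest to *Pbrm1* was 6794.5 bases, beside 4368 bases for all. Without normal kidney 9 the 5 closest were *Eif2ak4*, *Sox12*, *Senp1*, *Zfp280c* and *Tead3*, at 0.82 to 0.86, and *Setd2* had 0.66. Within the 10 tumors alone the 5 closest were other genes. There *Arid2* had 0.56, *Setd2* 0.54, *Arid1a* 0.22, *Arid1b* 0.07, *Brd7* -0.27 and *Smarca4* -0.53.

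The remaining SWI/SNF subunits were mixed in direction. Of the 13 further subunits of the shared core 12 were tested, 4 rose and 2 fell, with a median log2 fold change of 0.01. *Actb*, also the actin of the cytoskeleton, had 0.66, the scaffold *Smarcc1* 0.44, *Smarcd3* -0.45 (edgeR adjusted p = 0.0295, and 0.0513 without normal kidney 9) and *Bcl7a* -0.47. Of 4 tested subunits of canonical BAF 1 rose, *Dpf2*, a PHD finger protein, with a log2 fold change of 0.67 (SE 0.08, edgeR adjusted p = 4.11e-07). Its tumors, at 62.3 to 91.8 CPM, lay above its normal kidneys, at 44.5 to 55.9 CPM, as was so for 5.87% of all genes tested. Of the 3 subunits of non-canonical BAF, *Brd9* rose (0.31) and *Bicral* fell (-0.37). With normal kidney 9 left out the counts were 4 higher and 1 lower in the shared core, 1 and 0 in canonical BAF and 1 and 2 in non-canonical BAF.

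**Figure D5:**
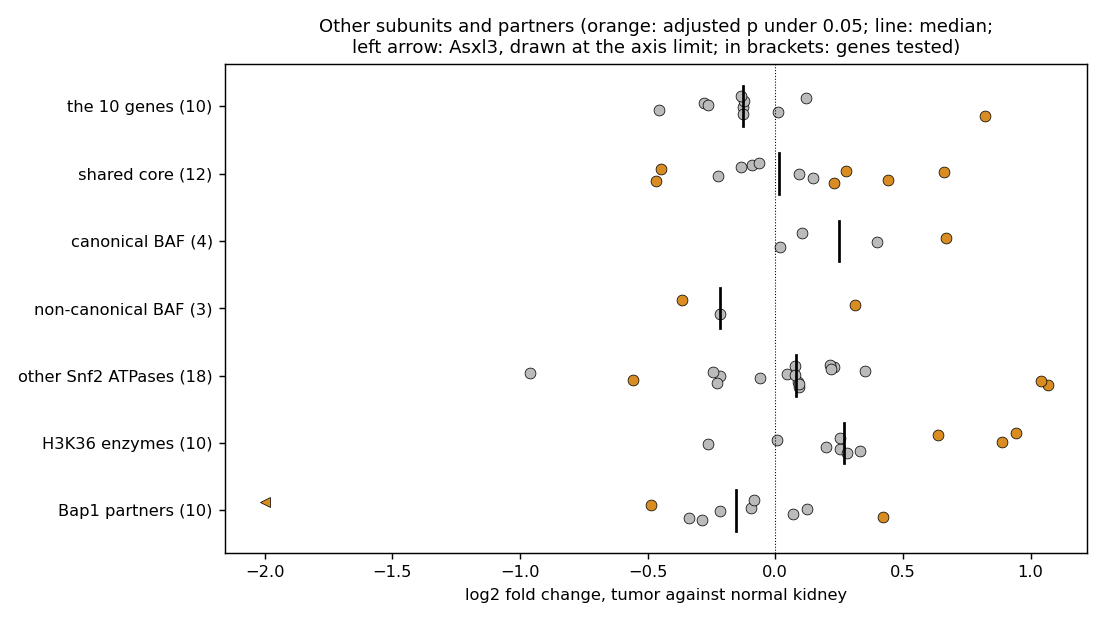
Log2 fold change, tumor against normal kidney (horizontal axis), of every tested gene of the 10 members and of 6 lists, with medians as lines and genes at adjusted p under 0.05 in orange. *Asxl3*, at -4.15, is drawn as an arrow at the left limit. With all libraries the median of the H3K36 enzymes, 0.27, is the highest of the 7 rows, beside 0.25 for canonical BAF. Without normal kidney 9 (not drawn) these medians are 0.20 and 0.21.

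Other ATPases of the Snf2 family mostly missed the threshold, with 2 of 18 higher, 1 lower and a median of 0.08. *Chd3*, a motor of the NuRD complex, rose by 1.07 (SE 0.25, edgeR adjusted p = 0.00142), from 228 ± 79.3 CPM to 478 ± 172 CPM (SD, n = 10 each). *Hells*, which acts in dividing cells, had a log2 fold change of 1.04, and *Chd6* had -0.56. The counts were 2 higher and 3 lower without normal kidney 9, where *Hells* was no longer called (edgeR adjusted p = 0.0567).

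The enzymes that write or erase methylation of H3K36 alongside *Setd2* were called higher in 3 of 10 cases and lower in 0, with a median of 0.27. The demethylases *Kdm4a* (0.94, SE 0.18, edgeR adjusted p = 1.43e-04) and *Kdm4b* (0.89, SE 0.12, edgeR adjusted p = 3.93e-06) rose, as did the methyltransferase *Nsd3* (0.64, SE 0.12, edgeR adjusted p = 1.11e-04). *Kdm4b* did not overlap between the groups, with tumors at 37.4 to 61.8 CPM and normal kidneys at 15.6 to 34.4 CPM. Of all genes tested, 5.87% had every tumor above every normal kidney. Leaving out normal kidney 9 gave 4 called higher and 1 lower.

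Of the 10 partners of *Bap1*, 1 rose and 2 fell, with a median of -0.15. *Asxl2*, which activates the deubiquitinase, rose (0.42) and the transcription factor gene *Foxk1* fell (-0.49). *Asxl3* was low in both groups, with tumors at 0 to 0.299 CPM and normal kidneys at 0.788 to 3.40 CPM, with a fitted log2 fold change of -4.15 (SE 0.50, edgeR adjusted p = 7.41e-07). Without normal kidney 9, 1 rose and 4 fell. For these 6 lists, chosen with results of these data known, the shares called can be set beside 23.6% higher and 23.8% lower among all genes tested.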

How the data were processed

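The deposited file holds raw read counts per gene for 20 libraries of paired-end poly(A) RNA sequencing, as delivered to the authors by a sequencing company, aligned to mm10. The aligner, the counter and the use of strand are not given in the sources used here, and exon lengths and coordinates came with the counts. The deposited counts were tested with edgeR 4.0.16 (R 4.3.3): genes were kept by filterByExpr with a minimum count of 10, libraries were scaled by TMM, and tumors were compared with normal kidneys by the quasi-likelihood test, adjusted after Benjamini and Hochberg over 15354 genes, a call being an adjusted p under 0.05. Ratios of members were taken within a library from counts plus 0.5 per kilobase of exon, and their mean log2 values were compared by two-sided permutation tests with 100000 resamples, adjusted over 5 ratios. Values in CPM follow TMM, and log2 CPM used for correlations and spreads had a prior count of 2.

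Groups were taken from the labels. The labels give tumors and normal kidneys of the same mice but do not say that a number marks a mouse, so numbers were not used as pairs. The p-values measure the spread between these samples. Outside the replicate block, the tests treated the libraries as independent, although tumors and normal kidneys came from the same mice. No pair of libraries of a group agreed within sampling noise. The alternatives were other scalings, no filter, DESeq2 1.42.0, limma 3.58.1 (voom with quality weights), a replicate block, a correction for each library's trend of expression with exon length (lowess, span 0.3), the 20 most abundant genes left out, and single or several libraries left out. The fits were tested on simulated data. The genes named outside the 10 members are, of each list, up to 4 called genes of largest fold change, the 5 protein-coding genes closest to *Pbrm1* and the tested genes within 150 kb of *Pbrm1* or *Bap1*. The members, lists and tests were chosen with earlier results of these data known. Guide sequences and proteins are not printed here.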

Additional observations from a re-analysis of the deposited data

Results flagged for a closer look

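In the 30 groups of values examined, an extreme library stood farther from its neighbors than Dixon's limit allows in 10, where chance alone gives about 1 in 20. In log2 CPM, normal kidney 9 was the low extreme of the normal kidneys for *Pbrm1* at 4.33 (the others 5.94 to 6.54), *Arid2* at 4.35 (5.51 to 6.21) and *Smarca4* at 5.34 (6.39 to 6.91). It was also the low extreme for *Arid1a* at 4.13 (6.35 to 6.88), *Arid1b* at 4.60 (5.98 to 6.43) and *Setd2* at 4.24 (5.83 to 6.39). For *Brd7* it was the high extreme at 5.45 (4.94 to 5.20). Its log2 ratio of *Arid1a* to *Arid1b* was -0.33 (0.34 to 0.70) and of *Setd2* to *Bap1* -3.41 (-1.70 to -0.98). The remaining extreme was *Brd7* in tumor 7, the lowest tumor at 4.74 (5.19 to 5.41). The length pattern of normal kidney 9 was seen beside the values of the long members, and its part in them was not tested beyond the correction for exon length, under which *Smarca4* remained called higher and *Arid1a* and *Setd2* were called lower with all 20 libraries.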

How the results depend on the processing

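*Smarca4* and the ratio of *Smarca4* to *Smarca2* kept their direction and their call under every alternative run. The log2 fold change of *Smarca4* was between 0.67 and 0.90 and the log2 ratio difference between 0.80 and 1.26. Across members and ratios, 381 of the recomputed values kept their direction and their side of the threshold, 42 newly passed it, 23 no longer passed and 19 turned direction. Counts of members called lower went from 0 to 2 with upper quartile scaling, library totals, DESeq2 and the length correction (with or without the block), to 1 without normal kidneys 5, 7 and 8, to 4 without normal kidney 9 (also with tumor 7, without pair 9 in the block, or without normal kidneys 5, 7, 8 and 9) and to 5 with limma-voom. Members called higher went from 1 to 2 with limma-voom and without normal kidney 9 and tumor 7.

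*Arid2* turned negative with relative log expression (-0.0087), upper quartile scaling (-0.10), library totals (-0.14), DESeq2 (-0.0089), limma-voom (-0.10), the length correction (-0.011, or -0.023 with the block), without normal kidney 9 and tumor 7 (-0.14) and in the block without pair 9 (-0.11). *Brd7* was -0.00103 with upper quartile scaling. *Phf10* was 0.066 without normal kidneys 5, 7 and 8, and 0.068 with normal kidney 9 also left out. Upper quartile scaling and library totals moved the median of all genes by -0.12 (log2) and the split of calls from 3631 higher and 3661 lower to 3000 and 4650, and to 2850 and 4554. Relative to that median *Bap1* was -0.11 under both, and *Arid1a* -0.43 and -0.47. Under these scalings *Arid1a* (-0.57 and -0.61) and *Bap1* (-0.25 and -0.25) newly passed, as they did with DESeq2 (-0.48 and -0.15).

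With limma-voom, *Pbrm1* (-0.44), *Brd7* (0.19), *Smarca2* (-0.28), *Arid1a* (-0.60), *Arid1b* (-0.20) and *Setd2* (-0.41) passed. With the length correction *Arid1a* (-0.45, with the block -0.42) and *Setd2* (-0.28, with the block -0.27) passed. Without normal kidney 9 and tumor 7, *Pbrm1* (-0.45), *Brd7* (0.18), *Arid1a* (-0.63), *Arid1b* (-0.27), *Setd2* (-0.44) and the ratios of *Arid2* to *Arid1a* and *Arid1b* (0.33) and *Setd2* to *Bap1* (-0.33) passed. Without normal kidneys 5, 7 and 8, *Smarca2* passed (-0.32), the ratios of *Arid1a* to *Arid1b* (-0.24) and *Pbrm1* to *Arid2* (-0.29) did not, and *Setd2* to *Bap1* was 0.083. Without these and normal kidney 9, *Smarca2* (-0.42), *Arid1a* (-0.55), *Arid1b* (-0.20), *Setd2* (-0.33) and *Arid2* to *Arid1a* and *Arid1b* (0.41) passed, and *Pbrm1* did not (-0.31, adjusted p = 0.0586). These last settings were chosen after seeing the data. The normal kidneys left out were low in *Smarca2*, so its calls there are not independent of that choice.

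Same-numbered tumors and normal kidneys deviated together with correlations of 0.191 to 0.377 in 9 pairs and -0.143 in pair 9, and 8 of 10 numbers correlated best with themselves. In the replicate block 1 member was called higher and 0 lower, and the ratios of *Arid1a* to *Arid1b* (-0.27) and *Pbrm1* to *Arid2* (-0.28) did not pass (adjusted p = 0.0708, permutation of signs). In the block without pair 9, *Pbrm1* (-0.46), *Arid1a* (-0.64), *Arid1b* (-0.27) and *Setd2* (-0.41) passed. The causes of these changes were not tested.

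Over single libraries left out, the log2 fold changes ranged from -0.39 to -0.21 (*Pbrm1*), -0.088 to 0.092 (*Arid2*, negative without tumor 5, 7 or 8 or normal kidney 1, 2 or 9), -0.59 to -0.40 (*Arid1a*), -0.24 to -0.10 (*Arid1b*) and -0.38 to -0.20 (*Setd2*), with 0 to 4 members called lower, and no single library other than normal kidney 9 changed a member's call. The ratio differences ranged from -0.35 to -0.23 (*Arid1a* to *Arid1b*), 0.21 to 0.34 (*Arid2* to *Arid1a* and *Arid1b*), -0.34 to -0.22 (*Pbrm1* to *Arid2*) and -0.27 to -0.00093 (*Setd2* to *Bap1*). The call of *Arid1a* to *Arid1b* was lost without tumor 4 or 6 or normal kidney 2, 3 or 6 (adjusted p 0.0533 to 0.0594), and *Arid2* to *Arid1a* and *Arid1b* passed without tumor 1 or 10 or normal kidney 5 or 9.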
